A study of Homo sapiens with 8 samples.

Results

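The 9 genes described here write, copy or remove DNA methylation: UHRF1, DNMT1, CDCA7, HELLS, DNMT3A, DNMT3B, TET1, TET2 and TET3. They were taken by gene symbol from 36474 genes in a count table, and each symbol matched 1 row. UHRF1 and CDCA7 were chosen by their counts, which were higher after treatment in these same libraries, so their values are a description and carry no test. The other 7 genes were picked for their role, with earlier results of these data known, and were tested. RNA had been sequenced from LNCaP cells, an established line from a human prostate cancer metastasis. All cells had been starved without serum and calcium for 6 to 12 h, and the groups differ in how long they then received recombinant asporin (ASPN, a secreted protein of the tumour stroma) at 100 ng/mL. The 0 h group held 2 libraries and the later groups 3 each. Cells kept in the medium for the same times but given no ASPN were not analysed here, so ASPN and time in the medium cannot be told apart. LNCaP is a single line, and the labels call the libraries biological replicates without saying whether they came from separate cultures beyond wells plated in triplicate. The p values therefore measure the spread between these libraries, which may be technical.

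Methylated cytosine in the DNA of human cells lies mostly in CG pairs, and copying DNA leaves the new strand without it. UHRF1 binds sites that are methylated on only the old strand and recruits DNMT1, the enzyme that copies the methyl group to the new strand. CDCA7 activates HELLS, a chromatin remodeller that opens nucleosome-covered DNA to this machinery. DNMT3A and DNMT3B place methyl groups at sites that had none, while TET1, TET2 and TET3 oxidise the methyl group as a step towards its removal. UHRF1, DNMT1, CDCA7 and HELLS are often more abundant in dividing cells.

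UHRF1 and CDCA7 more than doubled in level from 0 to 24 h, while DNMT1 rose by a smaller amount at both times and HELLS rose at 24 h. None of DNMT3A, DNMT3B, TET1, TET2 and TET3 passed the test at either time. The libraries held 73406825 to 96962135 counts. Levels are given as CPM, reads for a gene after TMM scaling brings every library to the same size, and errors are SD over the libraries of a group. The luminal prostate markers HOXB13, at 393 to 486 CPM, and FOLH1, at 1660 to 1985 CPM, were present in every library. PTPRC, CD3E, PECAM1, CDH5, DCN and TP63, markers of immune, endothelial, fibroblast and basal cells, had at most 7 counts in any library. Other markers of these cells were detected, COL1A1 at 18.9 to 21.3 CPM, VWF at 11.2 to 17.3 CPM, LUM at 86 to 161 counts, COL3A1 at 35 to 67 counts, KRT14 at 5 to 19 counts and CD68 at 1 to 16 counts a library.

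The start sites of the genes were searched for the core letters of the sequence that E2F factors bind, namely TTCCCGC and also TTGGCGC. On the opposite strand the first reads GCGGGAA and the second is read as GCGCCAA. The windows ran from 250 bases before to 50 bases after each start site listed by RefSeq on GRCh38.p14, and both strands were read. All 9 genes had at least 1 window, 20 in all, and 4 windows of 4 genes held a match. Of 35116 such windows over the annotated genes, 9.23% held either motif, 6.55% TTCCCGC and 3.04% TTGGCGC. These windows leave out 1 chromosome, which holds none of the 9 genes. The 30 bases around each match in the genes that moved, and in TET3, which did not pass the test, are shown 5′ to 3′ with the match in capitals.
UHRF1 chr19:4909386-4909415: ctctttctcgcTTCCCGCcactgcgtcggc
UHRF1 chr19:4909476-4909505: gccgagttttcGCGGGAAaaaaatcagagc
CDCA7 chr2:173354796-173354825: tgtgtcccaacGCGGGAAagacagcccgag
HELLS chr10:94545701-94545730: aaccgcaagctGCGCCAAatctcgcgcagc
HELLS chr10:94545770-94545799: atgacaggattTTCCCGCgaaggagaagcg
TET3 chr2:73984767-73984796: ccctcccctccGCGGGAAccacccccctct

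All of these genes lie on the plus strand. The first UHRF1 match began 104 bases before the listed start site, within an intron of a longer transcript in GENCODE release 44, and the second began 14 bases before it, within a coding exon of another transcript. The CDCA7 match began 65 bases before the start site, upstream of the gene. The HELLS matches began 76 and 7 bases before it, within exons outside the coding sequence. The TET3 match lay upstream of the gene, 132 bases before 1 of its 2 start sites. No match was found in the windows of DNMT1 (1 window), DNMT3A (6), DNMT3B (1), TET1 (3) and TET2 (2), which says only that these letters are not there. The UHRF1 window with the matches held 36 CG pairs, that of CDCA7 20 and that of HELLS 22. The matched TET3 window held 45, the DNMT1 window 30, and windows of DNMT3A up to 46 and of TET2 up to 35. The median of the 35116 windows was 14. Of the 4 genes with a match, UHRF1, CDCA7 and HELLS were higher at 24 h and TET3 was not, and DNMT1, which rose, had no match. A match is a description of the letters and not evidence of binding.

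UHRF1 (ENSG00000276043.5, chr19:4903080-4962154) stood at 11.8 and 12.5 CPM in the 0 h libraries. It stood at 21.7, 23.4 and 22.8 CPM at 12 h. The 24 h libraries held 29.0, 26.6 and 27.4 CPM. Every 12 h library lay above both 0 h libraries, and every 24 h library above all 12 h libraries. Of all tested genes, 17.3% had 12 h libraries and 21.5% had 24 h libraries wholly above the 0 h libraries, and 10.3% had 24 h libraries wholly above the 12 h libraries. The means were 12.1 ± 0.532 CPM (SD, n = 2), 22.6 ± 0.844 (SD, n = 3) and 27.7 ± 1.22 (SD, n = 3). The fitted log2 change was 0.90 (SE 0.071) at 12 h and 1.19 (SE 0.071) at 24 h against 0 h, a fold of 1.87 and 2.28. From 12 to 24 h it was 0.29 (SE 0.060), so most of the difference was present by 12 h. Over 33.0% of its transcript UHRF1 has a near copy (99.4% identity) in a processed pseudogene, and reads from that stretch could be counted for either. The copy received 256 counts in all 8 libraries together, against at least 909 for UHRF1 in each.

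DNMT1 (ENSG00000130816.17, chr19:10133342-10231286, minus strand), the partner that UHRF1 recruits, stood at 70.6 and 77.4 CPM at 0 h. The 12 h libraries held 93.2, 88.1 and 94.7 CPM, and the 24 h libraries 90.8, 85.9 and 89.9 CPM. All treated libraries lay above both 0 h libraries, and the 12 h and 24 h libraries overlapped. DNMT1 rose by a log2 change of 0.31 (SE 0.052) at 12 h, with an adjusted p of 7.11e-05 in edgeR's quasi-likelihood test, and of 0.27 (SE 0.052) at 24 h, with an adjusted p of 0.000324. Between 12 and 24 h the log2 change was -0.05, with a 95% interval of -0.14 to 0.04 and an adjusted p of 0.713. Under each of 16 alternatives the adjusted p of DNMT1 was at most 0.0178 at 12 h and at most 0.0443 at 24 h. The DNMT1 level was 20.2% higher at 24 h than at 0 h, and that of UHRF1 128% higher. Of its exon bases, 0.54% are shared with S1PR2 on the same strand.

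CDCA7 (ENSG00000144354.14, chr2:173354820-173368997, plus strand) stood at 3.49 and 3.87 CPM in the 0 h libraries. The 12 h libraries held 5.07, 5.90 and 5.13 CPM and the 24 h libraries 8.68, 7.22 and 8.29 CPM. As for UHRF1, the 3 groups did not overlap. The CDCA7 log2 change was 0.55 (SE 0.12) at 12 h and 1.13 (SE 0.12) at 24 h, and 0.58 (SE 0.10) between them. About as much of the CDCA7 difference on the log2 scale fell after 12 h as before it. UHRF1 and CDCA7 were both near a 2-fold difference at 24 h, at 2.28 and 2.20, but at 12 h UHRF1 stood at 1.87-fold and CDCA7 at 1.46-fold.

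HELLS (ENSG00000119969.15, chr10:94501434-94613905, plus strand), the remodeller that works with CDCA7, stood at 8.90 and 9.17 CPM at 0 h. The 12 h libraries ran apart, at 8.65, 12.5 and 10.9 CPM, and the first of them lay below both 0 h libraries. The 24 h libraries held 11.4, 12.5 and 12.5 CPM, all above the 0 h libraries. At 24 h HELLS rose, with a log2 change of 0.43, an SE of 0.11 and an adjusted p of 0.0045 in edgeR. At 12 h the log2 change was 0.25 (SE 0.11), which did not pass (adjusted p = 0.148), and from 12 to 24 h it was 0.18 (SE 0.093, adjusted p = 0.393). The calls against 0 h turned on a single library each. Without the 12 h replicate 1 library the 12 h adjusted p was 0.00535, and without the 0 h replicate 1 library the 24 h adjusted p was 0.103, at a log2 change of 0.40. The 12 h replicate 1 library did not stand below the 0 h libraries for DNMT1, UHRF1 or CDCA7. It was the lowest 12 h library for UHRF1 and CDCA7 but not for DNMT1.

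**Figure D1:**
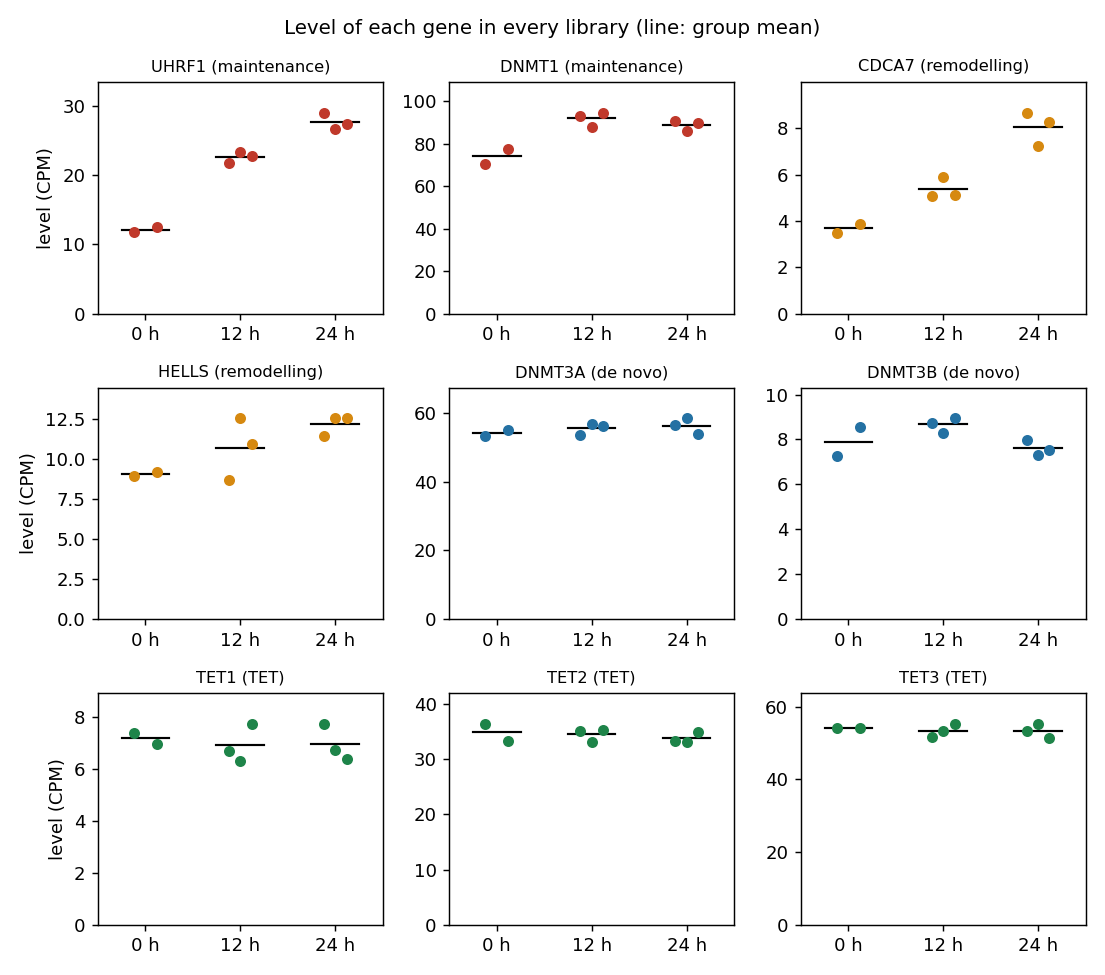
Level of each of the 9 genes (CPM, vertical axes from 0, each panel on its own scale) in every library at 0, 12 and 24 h; points are libraries and lines are group means. UHRF1 and CDCA7 step up at both times without overlap, DNMT1 steps up once, HELLS spreads widely at 12 h, and the de novo and TET genes stay within overlapping ranges except DNMT3B at 12 and 24 h.

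The de novo enzymes did not pass the test in any comparison. DNMT3A (ENSG00000119772.18, chr2:25227855-25342590, minus strand) stood at 53.2 and 54.9 CPM at 0 h, at 53.6, 56.7 and 56.3 CPM at 12 h and at 56.5, 58.5 and 53.8 CPM at 24 h. These groups overlapped in every comparison. The DNMT3A log2 change at 24 h against 0 h was 0.06 (95% interval -0.05 to 0.17, adjusted p = 0.536 in edgeR), an interval that leaves out a change of the size of DNMT1's. DNMT3B (ENSG00000088305.18, chr20:32762385-32809356, plus strand) stood at 7.24 and 8.54 CPM at 0 h, at 8.75, 8.30 and 8.96 CPM at 12 h and at 7.99, 7.31 and 7.54 CPM at 24 h. The DNMT3B log2 change against 0 h was 0.14 at 12 h (95% interval -0.06 to 0.34, adjusted p = 0.439 in edgeR). It was -0.05 at 24 h (-0.25 to 0.15, adjusted p = 0.817). The 12 h interval takes in the DNMT1 change of 0.31 at 12 h. For DNMT3B all 24 h libraries lay below all 12 h libraries. That difference was a log2 change of -0.19 (SE 0.088) with an unadjusted p of 0.0408 and an adjusted p of 0.336 in edgeR, so it did not pass. In the same comparison 9.33% of all tested genes had 24 h libraries wholly below the 12 h libraries.

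The TET genes did not pass in any comparison either. TET3 (ENSG00000187605.16, chr2:73984910-74108176, plus strand) stood at 54.1 CPM in both 0 h libraries, between 51.6 and 55.4 CPM at 12 h and between 51.5 and 55.1 CPM at 24 h. TET2 (ENSG00000168769.14, chr4:105145875-105279816, plus strand) stood at 36.5 and 33.3 CPM at 0 h and between 33.1 and 35.2 CPM over the other 6 libraries. TET1 (ENSG00000138336.9, chr10:68560337-68694487, plus strand) ran from 6.32 to 7.76 CPM over all libraries. No pair of groups was free of overlap for any of the 3 genes. The log2 changes at 24 h against 0 h were -0.02 for TET3 (95% interval -0.13 to 0.08, adjusted p = 0.842 in edgeR), -0.05 for TET2 (-0.17 to 0.07, adjusted p = 0.678) and -0.05 for TET1 (-0.27 to 0.18, adjusted p = 0.852). The interval is widest for TET1, which had the fewest counts of the 3, 469 to 706 a library. The upper end of each interval lies below the fitted DNMT1 rise of 0.27 at 24 h. That rise has a 95% interval of 0.16 to 0.37, and a TET1 fall of the same size is not left out.

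**Figure D2:**
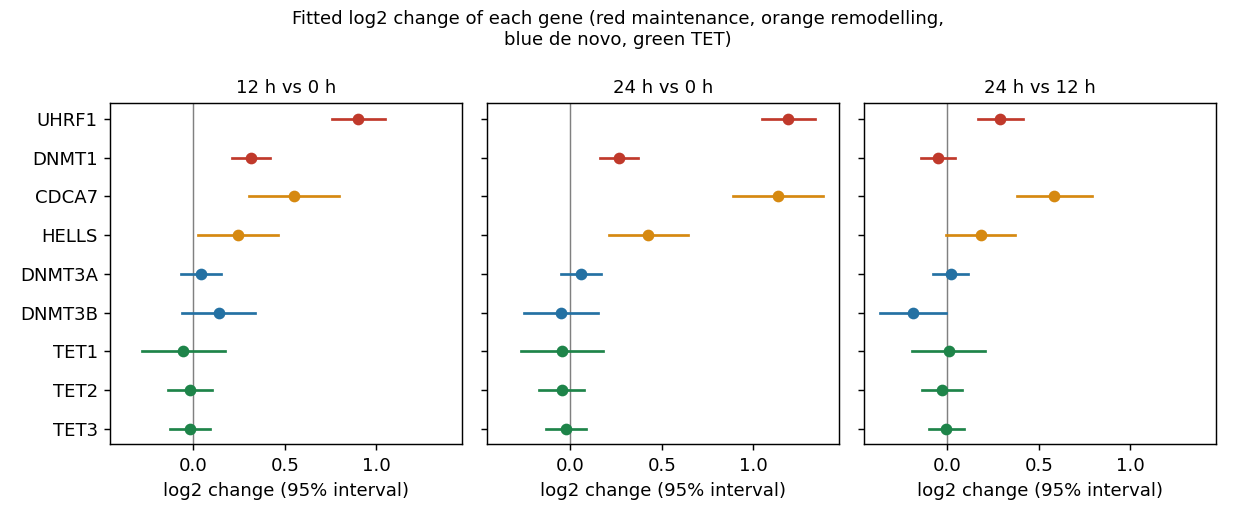
Fitted log2 change of each gene with its 95% interval (horizontal axis) in the 3 comparisons, coloured by role. At 24 h against 0 h UHRF1 and CDCA7 lie at 1.19 and 1.13 and DNMT1 and HELLS at 0.27 and 0.43, and the intervals of DNMT3A, TET1, TET2 and TET3 span 0 in each panel.

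Of the 7 tested genes, 1 passed at 12 h against 0 h (DNMT1) and 2 at 24 h against 0 h (DNMT1 and HELLS), all upward. Over all 21071 genes tested, 11.6% passed at 12 h and 16.3% at 24 h, of which 4.85% and 7.82% of the tested genes were higher. The count at 12 h is near that background, and at 24 h it differs from it by about a single gene. Both comparisons use the same 0 h libraries and are not independent. From 12 to 24 h none of the 7 passed in edgeR or in DESeq2, 1 (DNMT3B) had an unadjusted p under 0.05, and 2.72% of all genes passed. The median log2 change of the 7 was 0.04 at 12 h and -0.02 at 24 h, against -0.00069 and -0.0031 over all genes tested.

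Levels of different genes were compared per length, as CPM per kilobase of the MANE Select transcript, the reference transcript chosen for each gene. On this scale at 0 h DNMT1 led at 14.0 CPM per kb. It was followed by DNMT3A at 5.74, TET3 at 4.49, TET2 at 3.64, UHRF1 at 3.11, HELLS at 2.89, DNMT3B at 1.82, CDCA7 at 1.32 and TET1 at 0.748 CPM per kb. At 0 h no neighbours in this order overlapped, with 2 libraries a gene. By 24 h UHRF1 was the second, at 7.10 CPM per kb, above DNMT3A at 5.97 in every library, and CDCA7 at 2.90 stood above DNMT3B at 1.76 CPM per kb. HELLS at 3.88 stood above TET2 at 3.52 CPM per kb. At 12 h 3 pairs of neighbours overlapped, namely DNMT3A and UHRF1, TET2 and HELLS, and DNMT3B and CDCA7. The order depends on which transcript length is used. With the union of all exons DNMT1 stayed the first and UHRF1 became the second at 12 and 24 h. But HELLS, whose exons span 14231 bases against 3128 in the MANE Select transcript, fell to the ninth at 0 h. By that length HELLS was below TET2 at 24 h, at 0.854 against 2.05 CPM per kb. UHRF1 was already above TET2 at 0 h, at 2.36 against 2.12 CPM per kb.

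**Figure D3:**
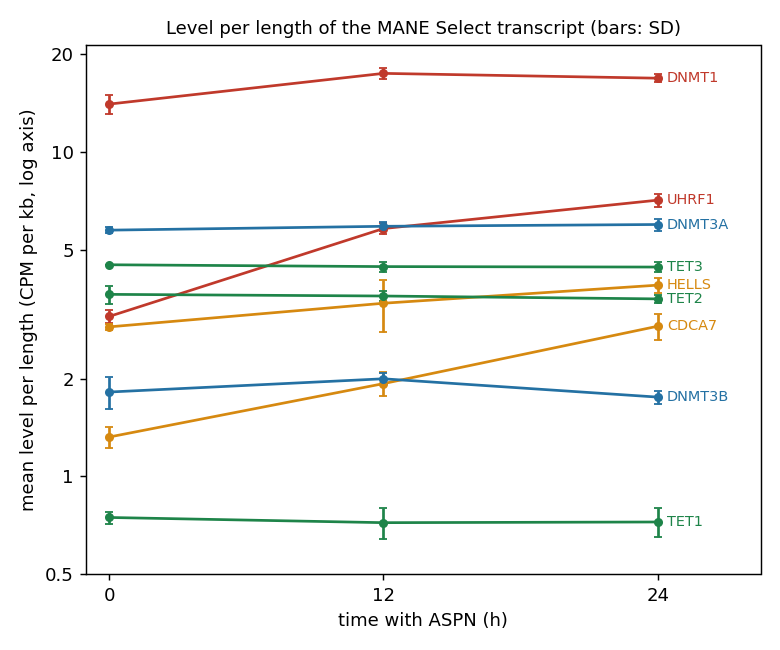
Mean level per length of each gene (CPM per kilobase of the MANE Select transcript, log axis) against time with ASPN in hours; bars are SD over 2 libraries at 0 h and 3 at the other times. UHRF1 crosses TET2, TET3 and DNMT3A between 0 and 24 h, and CDCA7 crosses DNMT3B, while the lines of DNMT3A and the TET genes stay near level.

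Ratios within a library do not depend on how libraries are scaled. Per length, the UHRF1 to DNMT1 ratio was 0.219 to 0.225 at 0 h, 0.315 to 0.359 at 12 h and 0.412 to 0.432 at 24 h, so the level of UHRF1 drew nearer to that of its partner in steps that did not overlap. The CDCA7 to HELLS ratio ran from 0.441 to 0.474 at 0 h, from 0.530 to 0.660 at 12 h and from 0.648 to 0.858 at 24 h, where the later groups overlapped. The DNMT1 to DNMT3A ratio, of maintenance to de novo enzyme, was 2.44 ± 0.106 (SD, n = 2) at 0 h, 2.96 ± 0.170 (SD, n = 3) at 12 h and 2.83 ± 0.185 (SD, n = 3) at 24 h. The DNMT1 to TET3 ratio went from 3.12 ± 0.204 to 3.94 ± 0.178 and 3.82 ± 0.226. Both were higher in all 12 h and 24 h libraries than in the 0 h libraries. In contrast, the DNMT3A to DNMT3B ratio (2.96 to 3.38, 2.82 to 3.15 and 3.26 to 3.68) and the TET2 to TET1 ratio (4.79 to 4.94, 4.55 to 5.25 and 4.30 to 5.47) overlapped between 0 h and each later time. These ratios are descriptions without a test.

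**Figure D4:**
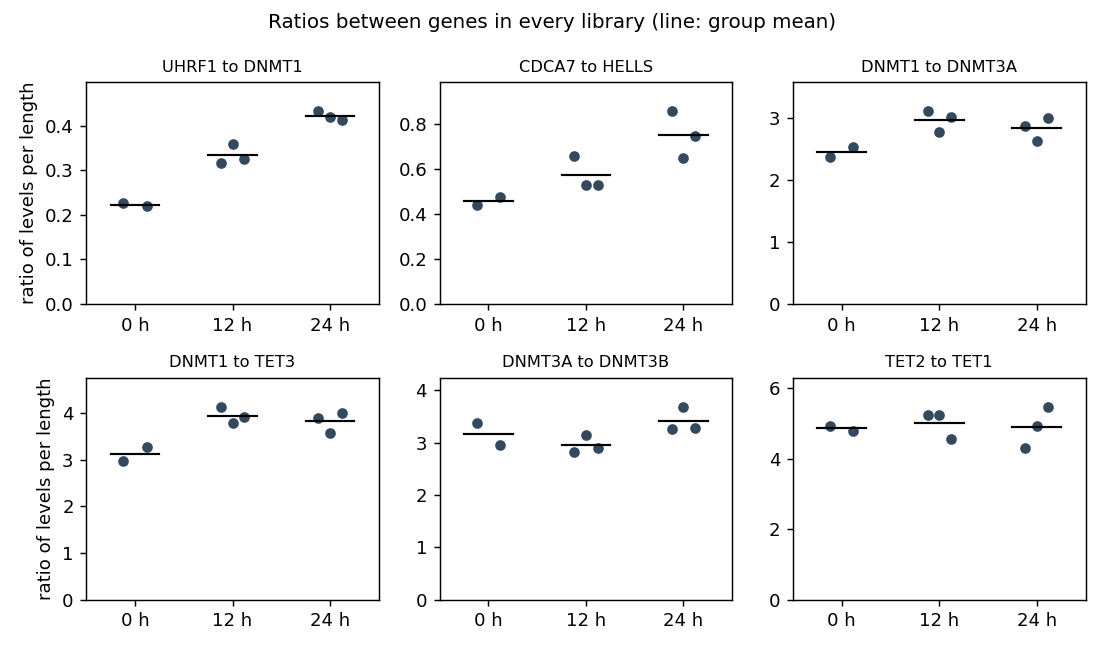
Ratio of levels per length between pairs of the genes in every library at 0, 12 and 24 h (vertical axes from 0); points are libraries and lines are group means. The UHRF1 to DNMT1 ratio climbs from 0.222 to 0.421 on average, and the ratios within the de novo pair and within the TET pair overlap between 0 h and the later times.

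The genes whose level followed UHRF1 most closely over the 8 libraries, among 11583 protein-coding genes averaging 100 or more normalized counts, were MLLT6 (Pearson r = 0.996), ZNF629 (0.994), CDCP1 (0.992), CBX6 (0.991) and TMEM164 (0.990). For CDCA7 they were CNP (r = 0.990), SEPTIN3 (0.989), CCND1 (0.986), TMC6 (0.983) and ZNF787 (0.982). CDCA7 itself had r = 0.93 with UHRF1, the 263rd of the ranked genes, DNMT1 had 0.86 and HELLS 0.75. DNMT3A had 0.52 and DNMT3B 0.01 with UHRF1, and the TET genes lay between -0.38 and -0.17. The libraries share 3 time points, so any gene that differs between them in 1 direction has a high r, and these values describe likeness only.

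The proteins that work with UHRF1 and DNMT1 moved in part. Of 6 such genes, 2 rose at both times and none fell, where 4.85% of all tested genes rose at 12 h and 7.82% at 24 h. PCNA, the clamp that holds the maintenance machinery at the replication fork, rose by 0.26 on the log2 scale (SE 0.055, adjusted p = 0.00142 in edgeR) at 12 h and 0.29 (SE 0.055, adjusted p = 0.000233) at 24 h. LIG1, the ligase that joins new DNA fragments and can be bound by UHRF1, rose by 0.38 (SE 0.091, adjusted p = 0.00459) and 0.28 (SE 0.091, adjusted p = 0.0324). Without the 0 h replicate 1 library the adjusted p at 12 h was 0.114 for PCNA and 0.358 for LIG1, and that of LIG1 at 24 h was 0.679. The 24 h call of LIG1 was also lost without the 24 h replicate 1 or 3 library. DMAP1, which binds DNMT1, had log2 changes of -0.01 and -0.04 (adjusted p = 0.959 and 0.748). The median of the 6 was -0.0061 at 12 h and 0.0012 at 24 h. Of the 2 relatives and regulators of the CDCA7 and HELLS pair, ZBTB24, a transcription factor that activates CDCA7, rose at 24 h by 0.26 (SE 0.080, adjusted p = 0.0246), and CDCA7L, a relative of CDCA7, had -0.07 (adjusted p = 0.467). The ZBTB24 call was lost without either 0 h library or the 24 h replicate 1 or 3 library, with an adjusted p of up to 0.139. Neither gene passed at 12 h, where ZBTB24 reached an adjusted p of 0.0421 without the 12 h replicate 1 library.

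Around the de novo enzymes, none of 4 guiding factors passed against 0 h. NSD1 and SETD2, which place the histone marks that DNMT3 enzymes read, had log2 changes at 24 h of -0.07 (adjusted p = 0.314 in edgeR) and 0.06 (adjusted p = 0.564). QSER1, which shields sites from these enzymes, had -0.14 at 12 h (adjusted p = 0.0971), and passed as lower there without the unnumbered 0 h library (0.0255) or the 12 h replicate 2 library (0.029). It had 0.04 at 24 h (adjusted p = 0.686), and it rose from 12 to 24 h by 0.18 (SE 0.049, adjusted p = 0.0339). That QSER1 call was lost without the 12 h replicate 1 or 3 library or any of the 24 h libraries, with an adjusted p of up to 0.168. DNMT3L was not analysed here.

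On the removal side, 3 of 13 TET partners and base excision repair genes rose and 2 fell at 12 h. At 24 h 3 rose and 2 fell, and the genes that fell were not all the same. A smaller share of all tested genes passed in either direction, 11.6% at 12 h and 16.3% at 24 h. IDH1, whose product makes alpha-ketoglutarate, the co-substrate of TET enzymes, fell by 0.38 on the log2 scale (SE 0.046, adjusted p = 9.9e-07 in edgeR) at 12 h and by 0.46 (SE 0.046, adjusted p = 6.29e-09) at 24 h, from 699 to 538 and 508 CPM. UNG, a glycosylase that removes uracil from DNA, rose by 0.20 (adjusted p = 0.0147) at 12 h and 0.38 (adjusted p = 5.91e-06) at 24 h. CXXC5, a CG-binding protein linked to TET2, rose by 0.25 (adjusted p = 0.00288) and 0.29 (adjusted p = 0.000244). The UNG adjusted p at 12 h was 0.286 without the 0 h replicate 1 library and 0.0667 without the 12 h replicate 3 library, and in the fit on only the 0 h and 12 h libraries it was 0.0531. The median over the 13 genes was 0.0041 at 12 h and 0.04 at 24 h.

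Among 7 readers of methylated DNA 1 passed at each time, a share near the 11.6% and 16.3% of all tested genes. That gene was MBD2, falling by 0.18 on the log2 scale at 12 h (SE 0.053, adjusted p = 0.0247 in edgeR) and by 0.17 at 24 h (SE 0.053, adjusted p = 0.0261). The MBD2 call was lost without the 0 h replicate 1 library, with an adjusted p of 0.474 at 12 h and 0.402 at 24 h. It was also lost at 12 h without the 12 h replicate 1 or 3 or the 24 h replicate 2 library, and at 24 h without any of the 24 h libraries. In the fit on only the 0 h and 12 h libraries its adjusted p was 0.0786. ZBTB4 and MBD1 had 0.14 (adjusted p = 0.0652) and -0.07 (adjusted p = 0.454) at 24 h, and ZBTB4 passed without the unnumbered 0 h library (0.0365) or the 12 h replicate 1 library (0.0328), under DESeq2 (0.0456), under the mean-count filter (0.0483) and in the fit on only the 0 h and 24 h libraries (0.0401). Among 6 genes of the methyl donor cycle, which supplies the methyl groups, 1 passed at each time, again near the share over all genes. That gene was MAT2B, falling by 0.23 at 12 h (adjusted p = 0.00489) and by 0.17 at 24 h (adjusted p = 0.037). The 24 h MAT2B call was lost without either 0 h library, the 12 h replicate 3 library or any 24 h library, with an adjusted p of up to 0.14, and with no low-count filter (0.0606). MAT2A, the enzyme that MAT2B regulates, had 0.11 (adjusted p = 0.0933). MAT2A passed without the unnumbered 0 h library (0.0492) or the 12 h replicate 1 library (0.044), under DESeq2 (0.0373) and in the fit on only the 0 h and 24 h libraries (0.0449).

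Genes often kept silent by promoter methylation showed no call. Of 12 listed, 11 were in the table and 6 passed the low-count filter, and none of the 6 passed the test in any comparison. RASSF1 had a log2 change of -0.20 at 24 h (adjusted p = 0.100 in edgeR, with 0.0331 without the 12 h replicate 1 library and 0.0393 in the fit on only the 0 h and 24 h libraries), MAGEA1 0.18 (adjusted p = 0.169) and TEX19 -0.47 (SE 0.24, adjusted p = 0.212). TEX19 was at 1.32 CPM at 0 h and 0.947 CPM at 24 h, and its error was wide. RNA levels do not measure methylation itself.

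**Figure D5:**
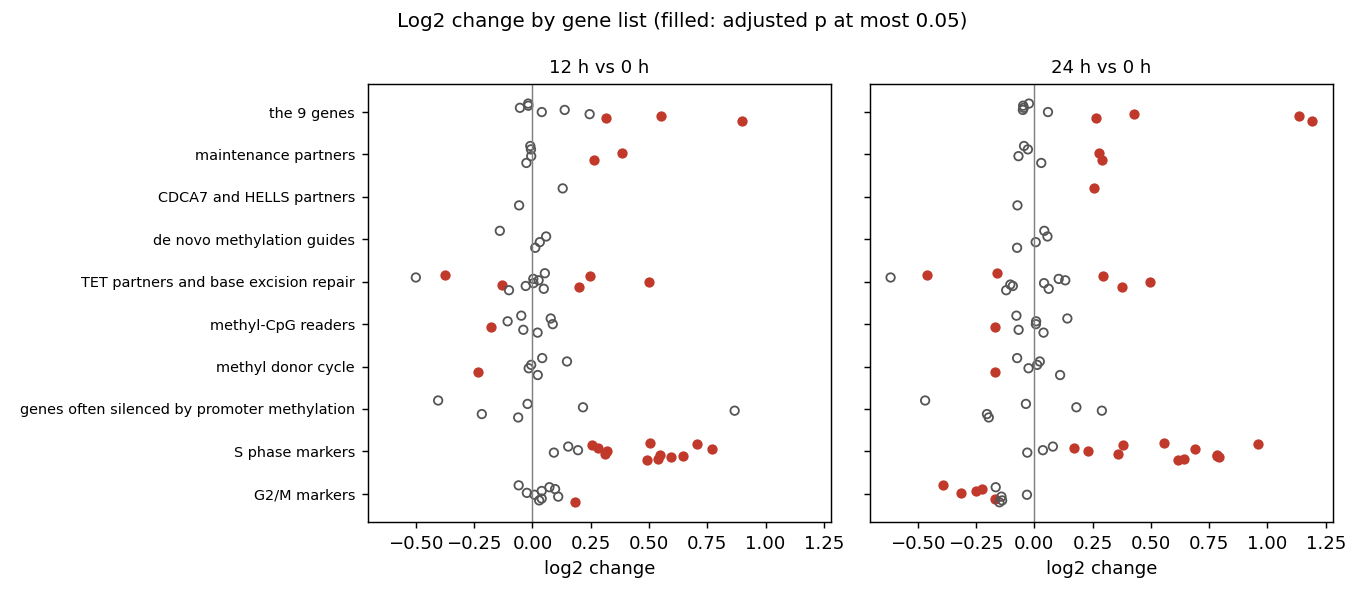
Log2 change (horizontal axis) of the 9 genes and of each gene tested in the 9 lists at 12 h and 24 h against 0 h; each point is a gene and filled points have an adjusted p of at most 0.05. UHRF1 and CDCA7, in the row of the 9 genes, were chosen for their rise in these libraries, so their filled points carry no test. S phase markers lie to the right at both times, with 12 of 15 filled. The methylation-related lists scatter around 0. At each time 2 of 6 maintenance partners are filled, both higher. Of 13 TET partners and base excision repair genes, 3 are filled as higher and 2 as lower at each time. The other methylation-related lists have at most 1 filled point each.

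Markers of the replicating phase moved with the maintenance genes. Of 15 S phase markers, 12 rose at 12 h and 12 at 24 h and none fell, with medians of 0.49 and 0.56. Over all tested genes 4.85% and 7.82% rose. Like the other lists, this list was chosen with earlier results of these data known. MCM6, MCM5 and MCM3, subunits of the replicative helicase, rose by 0.78 (adjusted p = 2.19e-10 in edgeR), 0.78 (adjusted p = 8.84e-10) and 0.64 (adjusted p = 2.2e-09) at 24 h. The summed level of the 15 ran from 511 to 576 CPM at 0 h, from 677 to 735 CPM at 12 h and from 707 to 764 CPM at 24 h. None of the markers was at 0 in all libraries. Of 10 G2/M markers, 1 rose at 12 h, while 5 fell at 24 h against 0 h and 9 fell from 12 to 24 h. Over all 21071 genes tested, 1789 fell at 24 h against 0 h and 339 from 12 to 24 h. UBE2C fell by 0.39, AURKA by 0.32 and CENPF by 0.22 on the log2 scale at 24 h (adjusted p = 9.04e-06, 0.000411 and 0.00299 in edgeR). Without the unnumbered 0 h library the adjusted p of CENPF was 0.0515. The G2/M sum was 733 to 768 CPM at 0 h, 749 to 814 CPM at 12 h and 639 to 701 CPM at 24 h. The UHRF1 log2 change of 1.19 at 24 h was above the largest of the 15 S phase markers, CCNE2 at 0.96. CCNE2 was named after its values were seen and UHRF1 was chosen for its rise, so this order is a description. The part of the S phase change in the levels of UHRF1, DNMT1, CDCA7 and HELLS was not tested. In bulk RNA, more cells in a phase and more RNA per cell cannot be told apart.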

How the data were processed

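Messenger RNA libraries were read as paired ends on an Illumina NovaSeq. The deposited values are raw counts of reads per gene, made by the authors with Cutadapt, STAR on GRCh38 and featureCounts with GENCODE genes. Strand and multi-mapping options are not given in the sources used here, so genes that overlap or have a near copy can share reads. A further time-0 library was dropped by the authors over its quality. The second time-0 column carries a number that no time-0 label has and was used as an unnumbered 0 h library. Library totals were 73406825 to 96962135 counts. A count of 0 allows up to 0.0309 to 0.0409 CPM, taking 3 counts as the limit and covering counting error only. Replicate pairs differed by more than sampling noise (chi-square per degree of freedom of 5.34 to 15.3).

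The main test was edgeR's quasi-likelihood test (glmQLFit and glmQLFTest, edgeR 4.0.16, limma 3.58.1, R 4.3.3) with TMM scaling, the filterByExpr filter and a coefficient per time point over all 8 libraries. Of 36474 genes, 21071 were tested. A gene passed when its p, adjusted by Benjamini-Hochberg over all tested genes, was 0.05 or less. The biological coefficient of variation was 5.59%. The steps were tested on simulated data. File coordinates equalled those of GENCODE release 44 for 30996 of 30996 genes with the same versioned identifier. HELLS and DNMT3B have other versions there (HELLS starts at 94545329 in release 44).

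The 9 genes and the lists (maintenance partners, CDCA7 and HELLS partners, de novo methylation guides, TET partners and base excision repair, methyl-CpG readers, methyl donor cycle, genes often silenced by promoter methylation, S phase markers, G2/M markers) were chosen with earlier results of these data known. The text names all 9 genes, the 5 genes most like UHRF1 and like CDCA7 by Pearson r of log2 CPM, and up to 3 genes of each list with the smallest p at 24 h against 0 h, except 1 gene of the methyl donor cycle that is not reported here. Alternatives were RLE and upper-quartile scaling, no filter, a filter at 100 normalized counts on average, the Wald test of DESeq2 1.42.0, fits on the time points compared, a replicate block, and leaving out each library.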

Additional observations from a re-analysis of the deposited data

How the results depend on the processing

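Among the 7 tested genes, the number passing was 1 at 12 h, 2 at 24 h and 0 from 12 to 24 h under both other scalings, both other filters, DESeq2 and fits on only the libraries compared. Leaving out single libraries gave 1 to 2 at 12 h, 1 to 2 at 24 h and 0 to 0 from 12 to 24 h. HELLS was the gene gained at 12 h (2 without the 12 h replicate 1 library) and lost at 24 h (1 without the 0 h replicate 1 library). Of the 10 genes most like UHRF1 and CDCA7, 9 were shared under RLE and 8 under upper-quartile scaling, and the mean filter is part of that ranking already. Over all genes, calls at 12 h fell from 2443 to 624 and at 24 h from 3437 to 1597 without the 0 h replicate 1 library. From 12 to 24 h they fell from 574 to 257 without the 12 h replicate 3 library, and to 231, 222 and 273 without the 24 h replicate 1, 2 or 3 library.

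Direction turned only for changes that did not pass. With upper-quartile scaling DMAP1 at 12 h was 0.0041, and with the mean filter TET1 from 12 to 24 h was -8.45e-05. Leaving out libraries at 12 h against 0 h gave -0.14 to 0.0093 for TET1, -0.070 to 0.049 for TET2, -0.041 to 0.013 for TET3, -0.087 to 0.080 for DMAP1, -0.020 to 0.045 for NSD1, -0.012 to 0.068 for MAT2A, -0.17 to 0.013 for RASSF1 and -0.043 to 0.018 for AURKA. At 24 h against 0 h it gave -0.17 to 0.077 for DNMT3B, -0.13 to 0.010 for TET1, -0.11 to 0.015 for TET2, -0.047 to 0.00018 for TET3, -0.13 to 0.040 for DMAP1 and -0.028 to 0.12 for QSER1. From 12 to 24 h it gave -0.017 to 0.050 for DNMT3A, -0.077 to 0.099 for TET1 and -0.036 to 0.021 for TET3. The cause was not tested.

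The replicate numbers of the 12 h and 24 h libraries were checked for pairing. Deviations of same-numbered libraries correlated at 0.102, 0.028 and 0.026, and those of the other pairs at -0.078 to 0.052. Whether same-numbered libraries share more than a number was not tested. With the replicate block 0 of the 7 genes passed from 12 to 24 h, as without it, and 865 genes in all. For the comparisons with 0 h, a block over all libraries was added after seeing the data, with the unnumbered 0 h library taken as number 3 (its column) or 2 (the titles). The 7 genes gave 1 call at 12 h and 2 at 24 h under either, and all genes 2114 or 1812 calls at 12 h and 2936 or 2806 at 24 h. With number 3, TET2 and DMAP1 at 12 h turned to 0.0034 and 0.027, and with number 2 DMAP1 was 0.0082. ZBTB24 and MAT2B at 24 h did not pass under either block, and with number 2 UNG at 12 h and MBD2 at both times did not pass. With only 2 libraries at 0 h, leaving out replicate 1 ended the HELLS call at 24 h.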
